A study of Mus musculus with 4 samples.

Results

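The class II and class IV histone deacetylases were followed together with the MEF2 transcription factors that class II enzymes bind. The genes were taken by symbol from a table of gene expression, and all 10 were found among the 24873 genes listed: Hdac4, Hdac5, Hdac7 and Hdac9 of class IIa, Hdac6 and Hdac10 of class IIb, Hdac11 of class IV, and Mef2a, Mef2c and Mef2d. The RNA-Seq data come from the cerebrum of mice described as VE-cadherin cre/ERT2 and Mgp fl/fl, which carry a tamoxifen-activated Cre recombinase under the promoter of the endothelial VE-cadherin gene (Cdh5cre in the sample labels) and a floxed Mgp gene, encoding an inhibitor of bone morphogenetic proteins. In the tamoxifen group, mice aged 10 weeks were given 75 mg/kg each day over 5 days, and mice of the control group, with the same alleles, received no tamoxifen. Cells were collected on day 9, and each of the 2 control and 2 tamoxifen libraries held cells pooled from 3 mice. The methods describe the cells as CD31+CD45- and the labels as tdTomato+ cells of the brain. Because the control mice received no drug, deletion of Mgp, tamoxifen itself and Cre activity cannot be told apart in this comparison. The columns of the table are lettered C and A, and A was read as the tamoxifen group although no label carries that letter.

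Histone deacetylases remove acetyl groups from histones and other proteins. Class IIa enzymes have little deacetylase activity of their own. They sit on MEF2 factors at DNA and, with corepressors, keep MEF2 target genes off until kinases such as protein kinase D phosphorylate them, 14-3-3 proteins bind and the enzymes leave the nucleus. In endothelium HDAC7 and HDAC5 are the best known class IIa enzymes, with roles in vessel integrity and angiogenesis, and MEF2 factors support the flow-responsive genes Klf2 and Klf4. The class IIb enzyme HDAC6 works in the cytoplasm on tubulin, HSP90 and cortactin, HDAC10 deacetylates polyamines, and HDAC11, the class IV enzyme, removes fatty acyl groups.

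The sequence before the transcription start was read for 9 of the 10 genes, in 15 RefSeq windows of 300 bases (250 before a start and 50 after it; RefSeq build GRCm38.p6, with positions given here from an exact match in GRCm39). MEF2 factors bind an A/T-rich element, and the letters CTANNNNTAG with each N an A or a T were searched. This element reads the same on both strands in its fixed letters, so a match on one strand is also a match on the other. It was present in 2 of the 15 windows, one of Hdac5 and one of Mef2a, and in 183 of all 32851 windows (0.557%). A wider form, with C or T first and A or G last, was in the same 2 windows and in 3.19% of all windows. A match is a description of the letters and not a site of binding. The windows of Hdac5 and Mef2a are shown because of this element, and that of Hdac7 because it had the lowest fold change of the 10 genes. Of the 4 Hdac7 windows, the one with the highest GC content (73.7% over all 300 bases) was taken. Not all 300 bases of a window are printed. The printed bases lie at chr11:102120999-102121248 for Hdac5, at chr7:67022599-67022856 for Mef2a and at chr15:97729377-97729626 for Hdac7. All 3 are written 5′ to 3′ on the minus strand, with the MEF2 element in capitals.
Hdac5: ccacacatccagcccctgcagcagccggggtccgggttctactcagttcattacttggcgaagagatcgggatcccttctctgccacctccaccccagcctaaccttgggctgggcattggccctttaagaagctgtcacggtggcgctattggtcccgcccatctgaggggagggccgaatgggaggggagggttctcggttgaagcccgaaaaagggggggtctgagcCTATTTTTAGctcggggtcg
Mef2a: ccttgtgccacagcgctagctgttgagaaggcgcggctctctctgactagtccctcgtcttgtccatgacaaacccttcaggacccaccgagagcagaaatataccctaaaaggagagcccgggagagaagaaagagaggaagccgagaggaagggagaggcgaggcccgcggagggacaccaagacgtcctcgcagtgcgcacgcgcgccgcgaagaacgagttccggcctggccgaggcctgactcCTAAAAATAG
Hdac7: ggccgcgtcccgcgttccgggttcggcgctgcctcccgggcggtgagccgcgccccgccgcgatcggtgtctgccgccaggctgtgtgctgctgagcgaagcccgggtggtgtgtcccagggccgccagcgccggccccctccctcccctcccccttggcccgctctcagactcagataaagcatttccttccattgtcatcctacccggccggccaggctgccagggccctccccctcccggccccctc
The element begins 20 bases before the start in Hdac5 and 2 bases before it in Mef2a, where the last 8 of the printed bases follow the start. Over their full 300 bases, of which only a part is printed, the 3 windows hold 18, 27 and 31 CpG dinucleotides. The median over all windows was 7. This Hdac7 window was picked for its GC content, and the other Hdac7 windows hold 5, 35 and 6 CpG dinucleotides. The expression values are totals per gene and do not show which start was in use.

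The values are normalized counts, namely reads on a gene divided by 1 factor per library. Between 35387438 and 49799321 reads fell on genes in a library, and the normalized totals were lower in the tamoxifen libraries (38352700 and 35800600) than in the control libraries (51330900 and 51346700). Fold changes were taken on log2(normalized count + 1) and tested with limma over 20485 genes whose mean reached 10 normalized counts, with Benjamini-Hochberg adjustment and a call at an adjusted p under 0.05. With 2 libraries a group an exact two-sided permutation test of 1 gene cannot go below p = 0.333, and limma instead pools the spread over genes. All 10 endothelial markers examined were lower after tamoxifen (median log2 fold change -2.91), with summed normalized counts of 988125 and 964318 in controls and 168017 and 85911 after tamoxifen. In bulk RNA, fewer cells of a type and less RNA per cell cannot be told apart. Mgp had 1094 and 1352 normalized counts in controls, against 945 and 909 after tamoxifen (log2 fold change -0.39, standard error 0.18, limma adjusted p = 0.0986).

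Of the 10 genes, 6 fell, 1 rose and 3 did not pass the test. Hdac5, Hdac7, Hdac10, Mef2a, Mef2c and Mef2d were lower after tamoxifen, by 2.45-fold to 5.09-fold, and Hdac6 was higher by 2.11-fold. Over all genes tested, 25.5% were called lower, 33.4% higher and 58.9% in either direction. The same 7 genes passed when an absolute log2 fold change over 1 was also asked, which 16.0% of all genes passed as lower and 28.6% as higher. Over all 10 genes the median log2 fold change came to -1.31, beside 0.05 over all genes tested. In 7 genes the tamoxifen values were both below the control values and in 1 above, against 39.2% and 43.1% of all genes tested. All 7 calls were also made with each library left out in turn and under each of the other 10 settings tried.

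**Figure D1:**
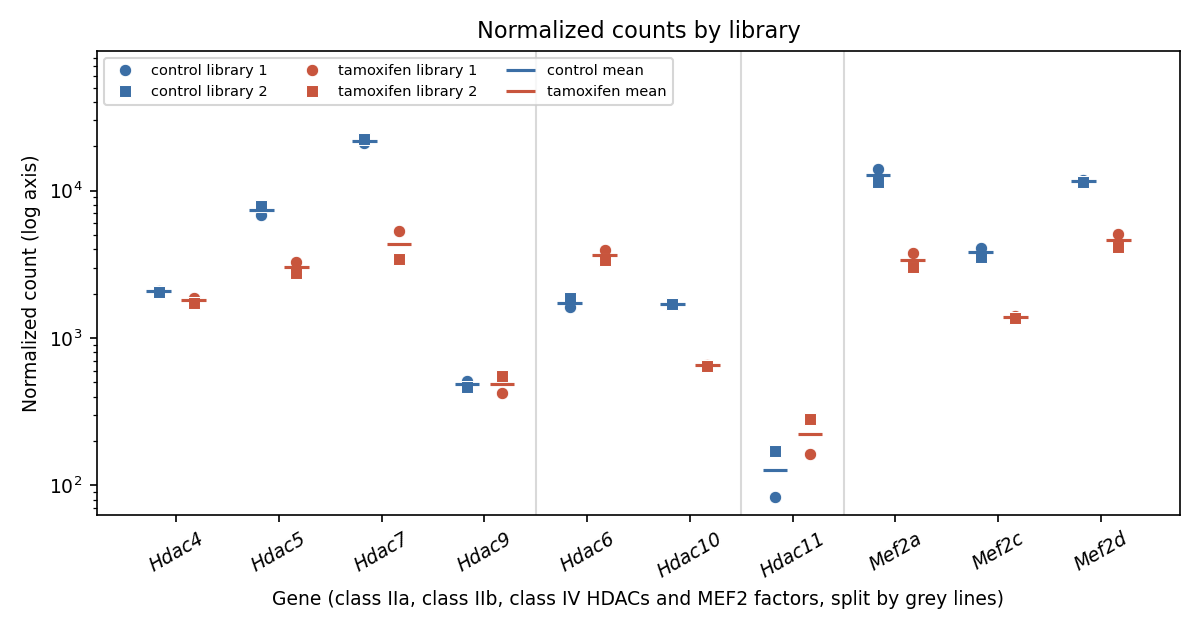
Normalized counts (log axis) of the 10 genes in the 4 libraries, with control in blue and tamoxifen in red, circles for library 1, squares for library 2, and a bar at each group's mean (n = 2). The blue and red points are apart for 8 genes and overlap for Hdac9 and Hdac11, and Hdac7 shows the widest gap, from a control mean of 21721 to a tamoxifen mean of 4362.

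Hdac7, the class IIa enzyme that is enriched in endothelium (chr15:97687372-97742383, minus strand, GRCm39), was the most abundant of the 10 genes per length in the control libraries and had the lowest fold change. In normalized counts it was at 21031 and 22411 in controls, against 5280.2 and 3444 after tamoxifen. The tamoxifen values were far below the controls, and the second was the lower one. The mean went from 21721 ± 976 to 4362 ± 1299 normalized counts (SD, n = 2), a log2 fold change of -2.35 (standard error 0.23, 95% interval -2.87 to -1.82, limma adjusted p = 0.000116). Of all genes tested, 4.43% had a lower fold change.

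Hdac5, the class IIa enzyme whose nuclear export follows growth factor signals in endothelial cells (chr11:102085245-102121072, minus strand), had 6864 and 7889 normalized counts in controls, against 3289 and 2737 after tamoxifen. The groups did not overlap, and the tamoxifen libraries differed less from each other than from either control library. Its log2 fold change was -1.29 (standard error 0.17, 95% interval -1.69 to -0.90, limma adjusted p = 0.000434).

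Hdac4, which represses MEF2 in muscle and bone (chr1:91855937-92123421, minus strand), had 2092 and 2061 normalized counts in controls, against 1862 and 1729 after tamoxifen. Both tamoxifen values were lower, but the difference did not pass the test, with a log2 fold change of -0.21 (95% interval -0.56 to 0.14, limma adjusted p = 0.259). The interval leaves room for a fall of up to 0.56 on the log2 scale. With libraries rescaled to equal totals, the sign turned and the log2 fold change was 0.26, still without a call.

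Hdac9, a repressor of MEF2 with a catalytically incomplete splice form (chr12:34097579-34967094, minus strand), had 514 and 466 normalized counts in controls, against 423 and 556 after tamoxifen. The tamoxifen values lay on either side of both control values. The means were 489.6 ± 34.0 and 489.2 ± 94.1 (SD, n = 2), with a log2 fold change of -0.01 (95% interval -0.56 to 0.53, limma adjusted p = 0.967). Its direction depended on the scaling of the libraries, at 0.46 with equal totals and at -0.75 with quantile normalization, where it was called (limma adjusted p = 0.035).

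The 2 class IIb enzymes moved in opposite directions. Hdac6, the tubulin deacetylase (chrX:7795684-7814404, minus strand), was the gene that rose. Its libraries held 1616 and 1857 normalized counts in controls, against 3958 and 3376 after tamoxifen. The tamoxifen values were both above the controls. The log2 fold change was 1.08 (standard error 0.16, 95% interval 0.69 to 1.46, limma adjusted p = 0.00095), and 69.3% of all genes tested had a lower fold change. With 1 library left out the adjusted p of Hdac6 reached 0.0499, the closest to the threshold of the 7 calls.

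Hdac10, the polyamine deacetylase (chr15:89007505-89013076, minus strand), had 1689 and 1688 normalized counts in controls, against 657 and 646 after tamoxifen. The values within each group were nearly equal, with a log2 fold change of -1.37 (standard error 0.16, 95% interval -1.75 to -0.99, limma adjusted p = 0.000289).

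Hdac11, the class IV enzyme (chr6:91133642-91151695, plus strand), had the lowest counts of the set and its groups overlapped. Its values were 83.6 and 171 normalized counts in controls, against 164 and 283 after tamoxifen, from 61, 137, 151 and 393 reads. The log2 fold change of 0.84 did not pass the test (95% interval -0.23 to 1.91, limma adjusted p = 0.153). The exact Poisson 95% intervals, which cover counting error only, were 63.9 to 107 and 144 to 203 normalized counts in the control libraries, so these 2 libraries differed by more than counting error. Library 2 was higher than library 1 in both groups, by 2.05-fold in control and 1.73-fold in tamoxifen. The summed counts of 8 mural cell markers were also higher in library 2, by 1.77-fold in control and 2.05-fold in tamoxifen, with 7 of the 8 markers higher in both groups. So were the sums of the neuron markers (1.41-fold and 1.67-fold), the astrocyte markers (1.16-fold and 2.12-fold) and the oligodendrocyte markers (1.26-fold and 1.10-fold). Of single markers, 4 of 6 for neurons, 5 of 6 for astrocytes and only 2 of 6 for oligodendrocytes were higher in both groups. The part of these markers in the Hdac11 value was not tested. Without the second control library the log2 fold change was 1.35 and Hdac11 was called (limma adjusted p = 0.0163).

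The 3 MEF2 factors all fell. Mef2a (chr7:66880911-67022606, minus strand), a factor expressed in most tissues, had 14009.6 and 11401 normalized counts in controls, against 3789 and 3014 after tamoxifen. The tamoxifen values were again both below the controls. With limma the log2 fold change was -1.90 (standard error 0.19, 95% interval -2.34 to -1.46, limma adjusted p = 0.000129), the second lowest of the 10 genes.

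Mef2c, which is needed for the forming heart and vessels (chr13:83652064-83815555, plus strand), had 4098 and 3537 normalized counts in controls, against 1418 and 1361 after tamoxifen. The groups were well apart, with a log2 fold change of -1.45 (standard error 0.16, 95% interval -1.82 to -1.09, limma adjusted p = 0.00018).

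Mef2d (chr3:88049185-88079398, plus strand), which like Mef2a is widely expressed, had 11776 and 11412 normalized counts in controls, against 5096 and 4171 after tamoxifen. The groups again did not overlap, and the log2 fold change was -1.33 (standard error 0.17, 95% interval -1.72 to -0.94, limma adjusted p = 0.000393).

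**Figure D2:**
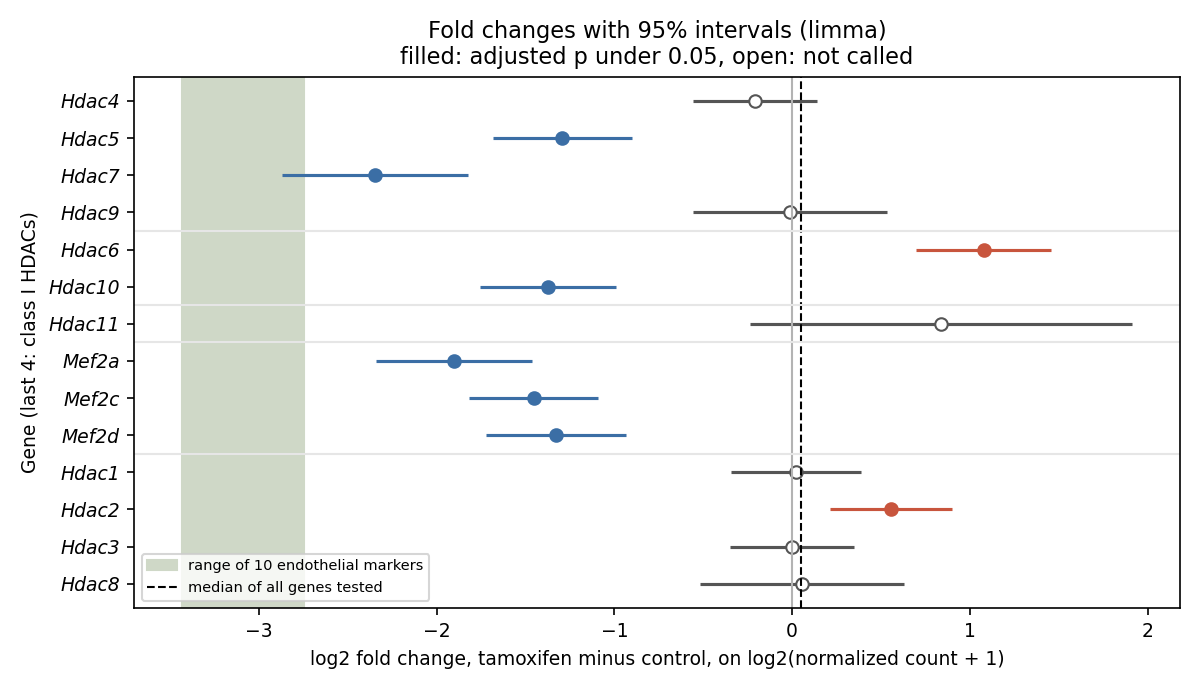
Log2 fold changes (tamoxifen minus control, on log2 of the normalized count plus 1) of the 10 genes and the 4 class I enzymes, as points with 95% intervals from limma, filled where the adjusted p was under 0.05 and open otherwise. The dashed line is the median of all genes tested (0.05), and the green band is the range of the 10 endothelial markers (-3.43 to -2.75), to the left of the point of Hdac7 (-2.35).

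Several of these genes share exon sequence with a neighbor on the opposite strand. Per the methods the libraries were made with a stranded kit, but the strand setting of the counting is not given in the sources used here. Hdac7 overlaps Slc48a1 over 2396 exon bases and Hdac5 overlaps G6pc3 over 2826, while Mef2a overlaps Lysmd4 over 1081 and Mef2d overlaps 2 genes over 543 and 181. Hdac11 overlaps 2 genes, over 594 and 117 bases, and Hdac10 overlaps 1 gene over 158, none of which is listed in the table of counts. Slc48a1, which encodes a heme transporter, had 3504 and 4348 normalized counts in controls, against 3894 and 3756 after tamoxifen. Lysmd4 had 837 and 899 in controls and 542 and 583 after tamoxifen. If counting ignored strand, reads of such a pair could not be assigned, and the values of Hdac5, Hdac7, Hdac10, Hdac11, Mef2a and Mef2d are uncertain to that extent.

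To compare levels between genes, normalized counts were divided by the length of all exons of the gene in kb. In the control libraries the order of these levels was Hdac7 (2187 ± 98.3 per kb, SD, n = 2), Mef2d (1513 ± 33.5), Mef2a (819.7 ± 119), Hdac5 (783 ± 76.9), Hdac10 (408 ± 0.0817), Hdac6 (234 ± 22.9), Mef2c (223 ± 23.2), Hdac4 (121 ± 1.25), Hdac11 (31.5 ± 15.4) and Hdac9 (31.2 ± 2.17). Neighbors in this order whose libraries overlapped were Mef2a and Hdac5, Hdac6 and Mef2c, and Hdac11 and Hdac9. In the tamoxifen libraries Mef2d was first (605 ± 85.4 per kb), followed by Hdac6 (494 ± 55.4), Hdac7 (439 ± 131) and Hdac5 (319.8 ± 41.5), of which Hdac6 and Hdac7 overlapped, as did Hdac7 and Hdac5. These orders depend on the length. Per kb of the canonical transcript, used after the data were seen, Hdac7 was still first in controls (2928 ± 132), but Mef2a (2302 ± 334) came before Mef2d (2127 ± 47.2) with overlapping libraries, Mef2c before Hdac6 and Hdac9 before Hdac11. In controls the libraries of Hdac9 and Hdac11 also overlapped on that length. After tamoxifen the order on that length was Mef2d (850.2 ± 120.0), Hdac6 (765 ± 85.9), Mef2a (616 ± 99.2), Hdac7 (588 ± 175) and Hdac5 (579 ± 75.1). Here Mef2d and Hdac6 overlapped, as did Mef2a, Hdac7 and Hdac5. Summed over the 4 class IIa genes, the level per kb in the tamoxifen libraries was 28.7% of the control level. Over the 3 MEF2 factors it was 35.4%. Both percentages depend on the scaling of the libraries, whose normalized totals were lower after tamoxifen.

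Shares of these sums within each library do not depend on the scaling between libraries. Hdac7 held 70.6% and 69.6% of the class IIa sum per kb in controls and 52.3% and 44.8% after tamoxifen. It was the leading class IIa gene in all 4 libraries on this length, with a smaller share after tamoxifen. Per kb of the canonical transcript it held 63.6% and 62.6% in controls and then 44.3% and 37.0%, and in the second tamoxifen library Hdac5 led with 42.0%. Hdac5 held 24.3% and 25.8% in controls and 34.3% and 37.6% after tamoxifen, and Hdac4 held 4.07% and 3.71% and then 10.7% and 13.1%. In neither of these genes did the groups overlap. Over all 7 deacetylases, the mean share of Hdac7 went from 57.6% ± 0.600 to 27.1% ± 4.64 (SD, n = 2) and that of Hdac6 from 6.15% ± 0.264 to 30.9% ± 0.552, whereas Hdac5 held 20.6% ± 0.887 and then 20.0% ± 0.00675. Among the MEF2 factors, Mef2d held 57.3% and 61.3% in controls and 67.0% and 66.5% after tamoxifen, and Mef2a 33.7% and 30.3% and then 24.6% and 23.8%. Which of them led in controls depended on the length used. Per kb of the canonical transcript Mef2a held 48.1% and 44.4% and Mef2d 41.0% and 45.0% in controls, and of counts not divided by length Mef2a held 46.9% and 43.3% and Mef2d 39.4% and 43.3%. After tamoxifen Mef2d led under each of these measures, and under each its share was higher and that of Mef2a lower than in controls. The share of Mef2c was 8.71% ± 0.308 and 9.02% ± 0.968, with overlapping groups. No test of 2 libraries against 2 can bring these shares to an exact p under 0.333.

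**Figure D3:**
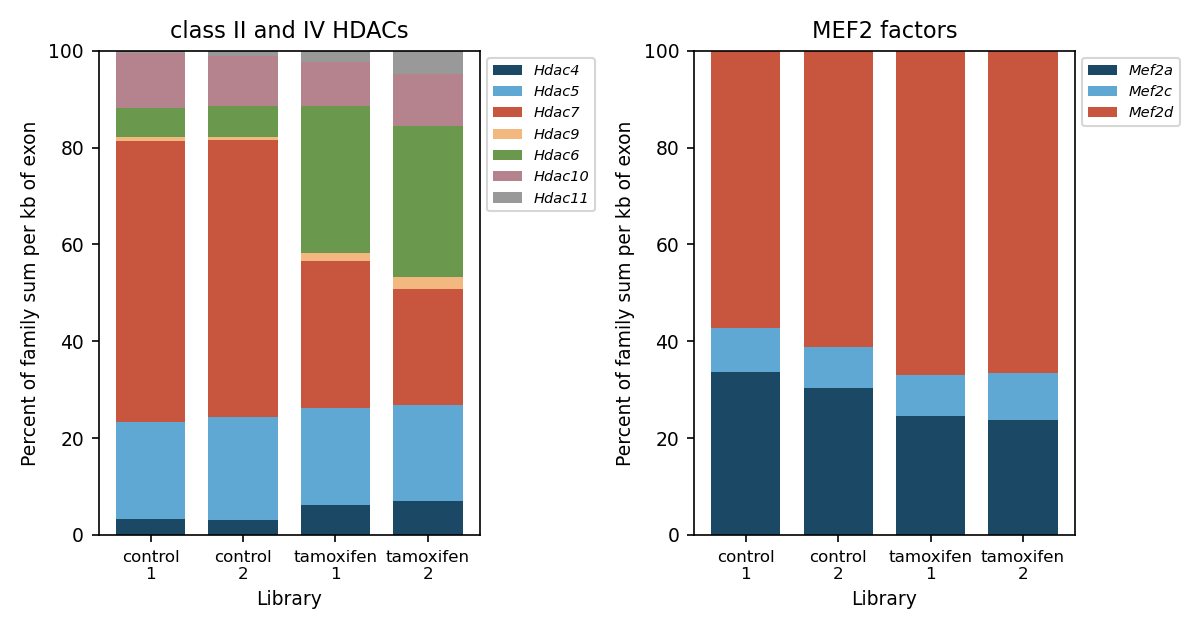
Stacked bars of the share (percent) that each gene held of its family's summed normalized counts per kb of exon, in each of the 4 libraries, for the 7 class II and IV deacetylases and for the 3 MEF2 factors. The Hdac7 segment is narrower after tamoxifen (mean 27.1% against 57.6%) and the Hdac6 segment is wider (30.9% against 6.15%). On this length the Mef2d segment is the widest of the MEF2 factors in each library. Per kb of the canonical transcript Mef2a led in the control mean (46.2% against 43.0% for Mef2d). There it led in the first control library (48.1% against 41.0%) but not in the second (44.4% against 45.0%).

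Since endothelial marker RNA was lower after tamoxifen, each gene was also set against it, as normalized counts per 1000 normalized counts of the 10 endothelial markers. On this scale all 10 genes had higher values in each tamoxifen library than in either control, as did 94.5% of all genes tested. Hdac7 was at 21.3 and 23.2 per 1000 in controls and at 31.4 and 40.1 after tamoxifen, the smallest difference of the 10 genes (1.61-fold). Mef2a was next, at 14.2 and 11.8 and then at 22.6 and 35.1 (2.22-fold). The ratio was higher by 3.11-fold for Mef2c, 3.30-fold for Hdac10, 3.32-fold for Mef2d, 3.40-fold for Hdac5, 7.34-fold for Hdac4, 8.96-fold for Hdac9, 16.2-fold for Hdac11 and 17.6-fold for Hdac6. The marker RNA in the denominator fell more than any of the 10 genes, and these ratios carry no test.

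The 2 tamoxifen libraries differed in their endothelial marker RNA, the second holding 0.511 of the first. Hdac7 was the gene that came nearest to this, at 0.652 of the first library. It was followed by Mef2a at 0.796, Mef2d at 0.818, Hdac5 at 0.832, Hdac6 at 0.853 and Hdac4 at 0.929, whereas Mef2c and Hdac10 were nearly equal in both (0.96 and 0.984) and Hdac9 (1.31) and Hdac11 (1.73) were higher in the second.

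**Figure D4:**
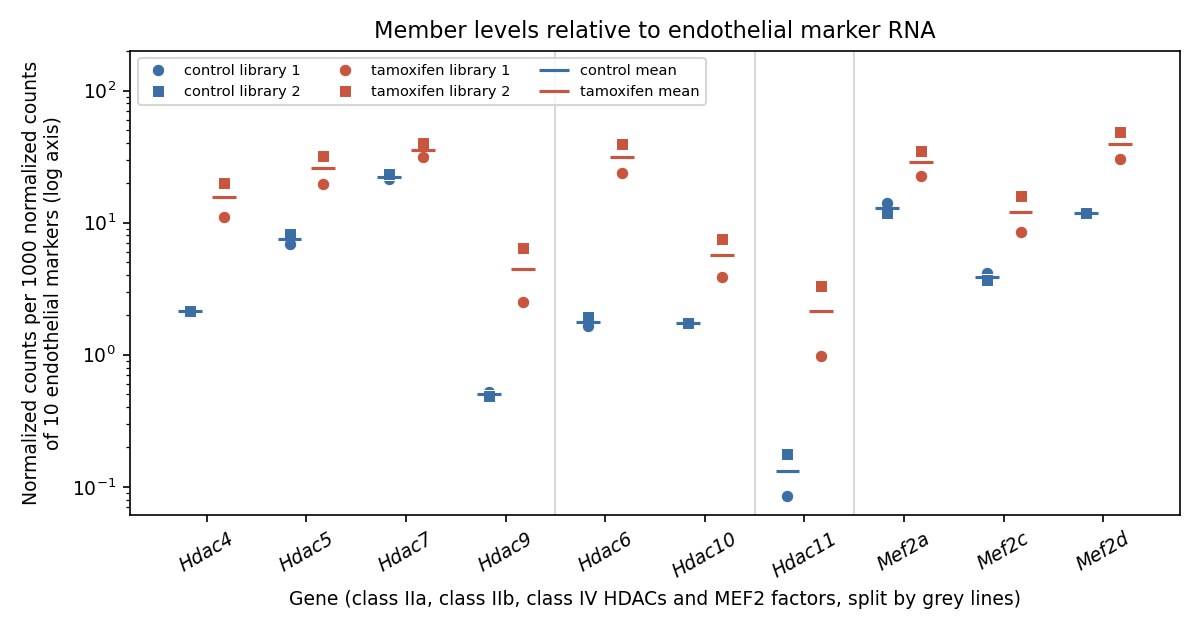
Normalized counts of each gene per 1000 normalized counts of 10 endothelial markers (log axis) in the 4 libraries, with control in blue, tamoxifen in red and a bar at each group's mean (n = 2). All red points lie above the blue points of the same gene, as for 94.5% of all genes tested, with the narrowest gap for Hdac7 (1.61-fold) and the widest for Hdac6 (17.6-fold).

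RNA of markers of other cells also differed between the groups, and its part in the values of the deacetylases and MEF2 factors was not tested. All 6 astrocyte markers were higher after tamoxifen (sums of 27117 and 31486 in controls, then 134790 and 285980), as were all 6 neutrophil markers (274 and 220.3, then 102943 and 76747), all 5 erythroid markers, all 6 pluripotency markers and all 6 proliferation markers (1033 and 1173, then 76437 and 74031). Of the B-cell markers 6 of 6 in the table rose, of the neuron markers 4 of 6, of the oligodendrocyte markers 5 of 6, of the skeletal muscle markers 5 of 6, of the microglia markers 3 of 6 and of the mural cell markers 1 of 8, and the others did not pass the test. In both control libraries Rag1, which defines developing lymphocytes, was at 0. Among the most abundant markers, Slc1a2 of astrocytes had 11049.6 and 18112 normalized counts in controls, against 69316 and 155205 after tamoxifen, and Mki67 of dividing cells 339.7 and 431 and then 31066 and 32223.

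The enzymes and partners that act on class IIa deacetylases were read from lists written with earlier results of these data known. Calls in this and the later lists stand beside 33.4% of all genes tested called higher and 25.5% called lower. Of 16 kinases of class IIa deacetylases, 9 fell, 2 rose and 5 did not pass the test (median log2 fold change -0.56), and with equal totals 5 fell and 5 rose. Prkd2, a protein kinase D, had 12530.3 and 9959 normalized counts in controls, against 3306 and 2025 after tamoxifen, a log2 fold change of -2.11 (standard error 0.25, limma adjusted p = 0.000267). Its relative Prkd3 (log2 fold change -1.29) and Mark3, a polarity kinase (-1.05), fell too. In the other direction, the calmodulin-dependent kinase Camk1d went from 188 and 232 to 1833 and 1743 normalized counts (log2 fold change 3.09, standard error 0.21) and Camk2g had a log2 fold change of 0.88. These 5 genes kept their direction under both other scalings, but without the second tamoxifen library 5 kinases were called lower and 1 higher.

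The 14-3-3 proteins, which hold phosphorylated class IIa enzymes in the cytoplasm, did not move one way. Of 7 genes, Ywhag rose (log2 fold change 1.27), Ywhab (-0.74) and Ywhaq (-0.56) fell and 4 did not pass the test, with a list median of -0.41 that turned to 0.07 with equal totals. Under that scaling Ywhab and Ywhaq were not called, and with any 1 library left out at most 1 of them was. Of 9 corepressor partners, Cbx5, the heterochromatin protein, rose by 0.81 and Bcl6 by 0.97 on the log2 scale, and Gps2 (-0.92), Ctbp1 (-0.57) and Bcor (-0.43) fell. The other 4 did not pass the test, and the list median (-0.25) turned to 0.22 with equal totals and to 0.17 with quantile normalization. With equal totals the 3 falls were not called and Bcor was at 0.04, and with any 1 library left out at most 1 of them was called.

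Of 13 genes that activate MEF2 or act with it, 8 fell and 5 did not pass the test (median log2 fold change -0.56), whereas 3 fell and 3 rose with equal totals. Ppp3cc, a catalytic subunit of the phosphatase calcineurin, had 4038 and 3653 normalized counts in controls, against 904 and 716 after tamoxifen (log2 fold change -2.25, standard error 0.18, limma adjusted p = 5.41e-05). The kinase Map3k3 (log2 fold change -1.52) and the acetyltransferase Crebbp (-0.94) also fell. With 1 library left out the count of lower genes was from 2, without the second tamoxifen library, to 4.

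Genes known as MEF2 targets were read by tissue. Of 7 endothelial MEF2 targets, 6 fell and 1 rose (median log2 fold change -2.20, beside -2.91 for the 10 endothelial markers). Klf2, the flow-induced transcription factor, had 33406 and 26445 normalized counts in controls, against 8977 and 3846 after tamoxifen (log2 fold change -2.34, standard error 0.37, limma adjusted p = 0.00108). Log2 fold changes of the others that fell were -2.81 for the Notch ligand Dll4, -2.42 for the homeobox gene Hlx, -2.20 for Jun, -1.49 for Klf4 and -1.32 for the nuclear receptor Nr4a1. The call of Nr4a1 (limma adjusted p = 0.0344) was lost with either other scaling, and without the second tamoxifen library 4 of the 7 genes were called lower. Mmp10, a matrix metalloproteinase, had no read in either control and 107 and 101 normalized counts after tamoxifen, at least 26.5-fold higher against a floor of 3 reads per library.

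The muscle MEF2 targets were at or below 1132 normalized counts in every library. Of 9 genes 8 were tested, 5 rose and 3 did not pass the test. Smyd1, a methyltransferase of striated muscle, had 13.7 and 7.51 normalized counts in controls, against 142 and 367 after tamoxifen (log2 fold change 4.36, standard error 0.62). Xirp2, an actin-binding protein of striated muscle, was at 0 in both controls and at 73.7 and 51.0 after tamoxifen, at least 15.9-fold higher. Ppargc1a, a coactivator that is also found outside muscle, went from 112 and 92.6 to 591 and 1132 normalized counts (log2 fold change 2.99, standard error 0.36). Without the second tamoxifen library 1 of these genes was called. The skeletal muscle markers named above, of which Ckm is also one, rose alongside and their part was not tested.

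Of 5 neuronal MEF2 targets, 3 rose and 2 did not pass the test. Bdnf, a growth factor for neurons, had 2.74 and 1.25 normalized counts in controls, from 2 reads and 1 read, and 119 and 142 after tamoxifen. Arc, an activity-induced gene of neurons, had a log2 fold change of 1.10, which turned to -0.14 without a call under quantile normalization. Without the second tamoxifen library 1 of the 5 was called, and 4 of the 6 neuron markers were also higher in this comparison.

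Besides Hdac6 itself, genes for proteins that HDAC6 acts on were read. Of 11 genes for HDAC6 substrates and for tubulin acetylation, 5 rose, 2 fell and 4 did not pass the test. The alpha-tubulin gene Tuba4a had 237 and 297 normalized counts in controls, against 4392 and 3622 after tamoxifen (log2 fold change 3.91, standard error 0.20, limma adjusted p = 9.74e-06). Tuba1c was higher by 3.34 and Hsp90aa1, the inducible HSP90, by 2.50 on the log2 scale. Alpha-tubulin genes are near-identical in their coding sequence, so the split of reads between them is uncertain. Sqstm1, an autophagy receptor, and Sirt2, another tubulin deacetylase, fell (log2 fold changes -1.03 and -0.78), and the call of Sirt2 was lost with equal totals and that of Sqstm1 with quantile normalization. Without the second tamoxifen library 3 genes were called higher and the 2 falls were not called.

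Polyamines are substrates of HDAC10. Of 10 genes of polyamine metabolism 4 rose, 2 fell and 4 did not pass the test. Over all genes tested 33.4% were called higher and 25.5% lower. Odc1, the first enzyme of polyamine synthesis, had 1492 and 1329 normalized counts in controls, against 10451 and 9156 after tamoxifen (log2 fold change 2.80, standard error 0.16, limma adjusted p = 1.38e-05). The synthases Sms and Srm rose by 1.81 and 1.71 on the log2 scale. The spermine oxidase Smox (log2 fold change -1.45) and the antizyme Oaz2 (-0.91) fell. These 5 directions were the same under both other scalings. Without the second tamoxifen library 2 genes were called higher and 2 lower.

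The class I enzymes had log2 fold changes from -0.0013 to 0.55, beside -2.35 to 1.08 for class II. Of Hdac1, Hdac2, Hdac3 and Hdac8, Hdac2 rose, with 3654 and 3418 normalized counts in controls, against 5295 and 5086 after tamoxifen (log2 fold change 0.55, standard error 0.15, limma adjusted p = 0.0135). This call was lost when any 1 library was left out. Hdac1 (log2 fold change 0.02, 95% interval -0.35 to 0.39), Hdac3 (-0.0013, 95% interval -0.35 to 0.35) and Hdac8 (0.06, 95% interval -0.52 to 0.63) did not pass the test. With equal totals 3 of the 4 were called higher.

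For Hdac7, Hdac9 and Mef2c, the genes with the most similar pattern were sought among 7780 genes with a mean of 1000 or more normalized counts, by the Euclidean distance over the 4 libraries of log2 values centred on each gene's mean. Those nearest to Hdac7 were Adgre5 (distance 0.0567), App (0.0603) and Mfng (0.0664). Adgre5, an adhesion receptor, had 25696 and 27081 normalized counts in controls, against 6726 and 4255 after tamoxifen, so that it shared the lower second tamoxifen library. Nearest to Hdac9 were Daam1 (0.0643), Slc12a2 (0.0824) and Pnisr (0.107), and nearest to Mef2c were Mapk1ip1 (0.045), Zfp319 (0.0577) and Vps13d (0.0603). These distances rest on 4 libraries and carry no test.

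**Figure D5:**
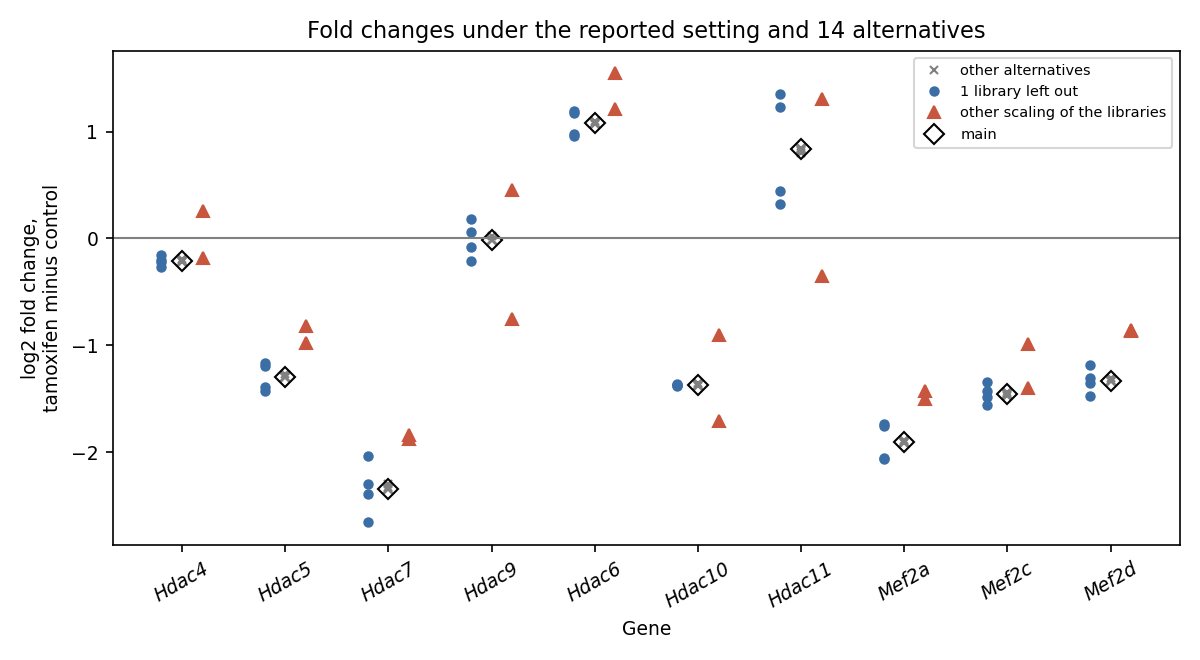
Log2 fold changes (tamoxifen minus control) of the 10 genes under the reported setting (open diamonds) and 14 alternatives, with blue circles for 1 library left out, red triangles for another scaling and gray crosses for the rest. Hdac4, Hdac9 and Hdac11 have points on both sides of 0, and the other 7 genes stay on one side, with Hdac7 between -2.66 and -1.84.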

How the data were processed

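RNA-Seq of 4 libraries (2 control, 2 tamoxifen) was read from 1 deposited table. Per the methods, STAR 2.7.10a was used by the authors for alignment to GRCm39, weakly covered genes were dropped and DESeq2 1.36.0 was used for normalization. Each deposited value is a signal, that is, the read count of a gene over 1 factor per library. The annotation release, the strand setting of the counting and the low-count limit are not given in the sources used here. All values (100% per library, tolerance 0.01) were whole multiples of 1 read, so reads were recovered, and 0 columns were left unused. Columns C1 and C2 were matched to the control libraries by name, and A1 and A2 to the tamoxifen libraries by number, with A read as arteriovenous malformation. Nothing in the labels says whether libraries of a group came from separate preparations. The legend of the study's RNA-Seq heatmap describes each row as an independent group of cells, pooled from 3 mice. The limma p-values rest on the spread between these libraries, moderated over all genes tested.

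Normalized counts were tested with limma 3.58.1 in R 4.3.3 (lmFit, eBayes with trend) on log2(value + 1), on genes whose mean reached 10. This scale understates the change of low genes. A gene with no read is compatible with up to 3 reads. Alternatives were pseudocounts of 0.5 and 5, no filter or one at 100, equal totals, quantile normalization, no trend, a replicate block, count tests on recovered reads (edgeR 4.0.16 and DESeq2 1.42.0), leaving out each library, and other lengths for shares. The fit was tested on simulated data. Gene positions and exon lengths came from GENCODE M39, in which 24451 of 24873 symbols were found. The members, gene lists and tests were chosen with earlier results of these data known. The genes named are all members, every class I deacetylase and endothelial MEF2 target, up to 3 genes per direction with the lowest adjusted p of each other pathway list, abundant markers, Mgp, and the 3 nearest genes of Hdac7, Hdac9 and Mef2c. G6pc3, Slc48a1, Lysmd4, Rag1 and, in the muscle list, Ckm and Stac3 were named after their values were seen. Some genes that this rule names are not reported here.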

Additional observations from a re-analysis of the deposited data

How the results depend on the processing

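Hdac5, Hdac6, Hdac7, Hdac10, Mef2a, Mef2c and Mef2d kept their direction and their call in all 14 alternatives, with adjusted p-values of at most 0.0499. Leaving out each library in turn gave ranges of -1.43 to -1.16 for Hdac5, 0.96 to 1.19 for Hdac6, -2.66 to -2.04 for Hdac7, -1.38 to -1.36 for Hdac10, -2.07 to -1.74 for Mef2a, -1.56 to -1.35 for Mef2c and -1.47 to -1.19 for Mef2d on the log2 scale. These fits leave 1 library in a group, which is assumed to vary like the other group. With equal totals the median of all genes shifted by 0.47, and with quantile normalization by -0.25. With equal totals Hdac4 was at 0.26 and Hdac9 at 0.46, and with quantile normalization Hdac9 was at -0.75 (called lower) and Hdac11 at -0.35. Hdac9 was at 0.019 with DESeq2. Without 1 library Hdac4 ranged from -0.26 to -0.16, Hdac9 from -0.21 to 0.18 (0.06 without the first control library, 0.18 without the first tamoxifen library) and Hdac11 from 0.33 to 1.35, the latter without the second control library, where Hdac11 was called and the count of the 10 genes called higher went from 1 to 2. The cause was not tested. Among all genes tested 6843 were called higher and 5228 lower. On recovered reads edgeR called 6817 higher and 5329 lower. The counts were 9255 and 2833 with equal totals, and 3284 genes were lower when a log2 fold change over 1 was also asked. Without 1 library they ranged from 2648 to 6838 higher and from 1850.0 to 4757 lower, lowest without either tamoxifen library (3157 and 2357 without the first). The labels give no pairing of same-numbered libraries. Their deviations had a correlation of 0.0251 over 20485 genes, a value over all genes tested that does not describe single lists. With the replicate block 7143 genes were called higher and 5492 lower, 7 of the 10 genes were called, and the adjusted p of Hdac11 was 0.059. List medians were recomputed after the data were seen. Among the pathway lists, those that turned were the 14-3-3 proteins (0.065 with equal totals) and the corepressor partners (0.22 with equal totals, 0.17 with quantile normalization). The median of the 2 class IIb genes also turned, from -0.15 to 0.32 with equal totals. Not divided by length, the tamoxifen minus control differences in share were 12.2 percentage points for Hdac4 and 8.05 for Hdac5 in class IIa, and 6.82 for Hdac4, 0.32 for Hdac5, 2.13 for Hdac9 and 21.0 for Hdac6 among the 7 deacetylases. Per kb of the canonical transcript, chosen after the data were seen, they were 4.01 for Hdac4, -1.95 for Hdac5 and 23.9 for Hdac6.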
